A study of Mus musculus with 4 samples.

Results

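Histone genes were read in poly(A)-selected RNA of splenic Treg cells, the CD4+ T cells that carry the transcription factor Foxp3 and restrain other immune cells. The genes were chosen by symbol, as every gene of the deposited expression table whose name begins with Hist, H1f, H2ac, H2bc, H2az, H2ax, H2af, H3c, H3f, H4c or H4f. This gave 75 of 24087 genes. They were split by name into 64 replication-dependent genes of the histone clusters and 11 variant histone genes. The choice was made with the difference between the genotypes in these same libraries already known, so the differences below are a description of the members and no test rests on them.

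The libraries came from CD3+CD4+YFP+ cells sorted from the spleen of C57BL/6 mice at steady state, either Foxp3Cre-YFPSetd2f/f (KO) or their Foxp3Cre-YFPSetd2f/+ littermates (CTRL). There were 2 libraries of each. Each library pooled cells of 2 mice, at about 1000000 cells. Both genotypes carry the Cre-YFP allele, in which the Foxp3 promoter drives the recombinase, so that Setd2 is deleted in Foxp3-expressing cells. The CTRL mice carry 1 floxed Setd2 allele themselves, and the ages were given only as a range for the mice of the study. Setd2 is the methyltransferase that places the trimethyl mark on lysine 36 of histone H3, and the question of the comparison was which transcripts depend on it.

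Histone genes fall into classes that differ in how their mRNA ends. Genes of the clusters are copied during DNA replication, have no introns as a rule, and end their mRNA in a short stem-loop that the protein Slbp binds and that takes the place of a poly(A) tail. Variant genes lie apart from the clusters, are transcribed also outside S phase, and end in a poly(A) tail as other mRNAs do. The RNA of these libraries was enriched with oligo(dT), so a value for a cluster gene is the level of the RNA that this step retained and not of all its mRNA.

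Sequences after the stop codon were taken from the GENCODE transcripts (GRCm38) to see which members hold a stem-loop. The search was for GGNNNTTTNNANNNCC, 16 bases on the transcript strand, with the 6 bases on either side of a loop of 4 bases able to pair. Of the 64 cluster genes, 49 had annotated sequence after the stop codon and 41 of these held the stem-loop, which began 22 to 59 bases after the stop codon. Among the variants 2 of 11 held it, H2ax and H4f16, and among other coding genes with such sequence 18 of 20144 did (0.0894%). H4f16 carries the name Hist4h4 in GENCODE, and counts as a variant here only by its symbol. A poly(A) signal (AATAAA or ATTAAA) was found after the stop codon in 19 cluster genes, in 10 of the 11 variants and in 92.0% of the other coding genes. Stem-loops of members that the results turn on are shown with 5 bases on either side, 5′ to 3′, the stem and loop in capitals.
H1f2: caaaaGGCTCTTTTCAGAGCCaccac
H2ac11: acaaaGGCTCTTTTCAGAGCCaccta
H3c1: ccaaaGGCTCTTTTCAGAGCCacaca
H4c9: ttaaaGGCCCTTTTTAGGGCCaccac
H4c8: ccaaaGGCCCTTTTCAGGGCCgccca
H2ax: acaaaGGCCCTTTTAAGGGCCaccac
The form of H1f2, H2ac11 and H3c1 was that of 24 of the 41 cluster genes with a stem-loop, and 6 forms occurred in all. Of the printed genes, H1f2, H4c9, H4c8 and H2ax also hold a poly(A) signal, whereas H2ac11 and H3c1 do not. In H2bc4, H2bc21, H2az1, H2az2, H3f3a, H3f3b, H1f0 and H1f10 the search found a poly(A) signal and no stem-loop. A stem-loop of another form, or one outside the annotated transcripts, would be missed.

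The 14 H3 members all carry the lysine that Setd2 methylates, with the same codon. The coding sequence around it is shown for both H3.3 genes and for a cluster gene, 5′ to 3′, with the codon of lysine 36 in capitals and its position counted without the first methionine.
H3f3a: ggaggggtgAAGaaacctcat
H3f3b: ggcggggtgAAGaagcctcac
H3c1: ggcggcgtgAAGaagcctcac

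Promoters of 67 members were matched by symbol in RefSeq (GRCm38.p6), as windows of 300 bases from 250 before to 50 after the start. With both strands searched, the TATA motif TATAAA was in 58.6% of the 58 cluster promoters, compared with 14.2% of all 27025 promoters. The motif CCAAT was in 86.2% and 37.9%, and the octamer ATTTGCAT in 20.7% and 1.75%. H2A and H2B promoters of the clusters held CCAAT in 17 of 17 and 14 of 14 windows. So did H1 and H3 promoters in 6 of 6 and 10 of 10, and H4 promoters in 3 of 11. The 9 variant promoters held CCAAT in 5 cases and TATAAA in 1. H2ac11 and H2bc11 are transcribed away from each other, and the stretch between their starts is shown because both were among the members with the highest differences. It is the 250 bases before the start of H2ac11, at chr13:22042950-22043199 on the minus strand, and reaches the start of H2bc11 on the plus strand. The 5 CCAAT motifs, 2 on the strand shown and 3 on the other (ATTGG), are in capitals.
between H2ac11 and H2bc11: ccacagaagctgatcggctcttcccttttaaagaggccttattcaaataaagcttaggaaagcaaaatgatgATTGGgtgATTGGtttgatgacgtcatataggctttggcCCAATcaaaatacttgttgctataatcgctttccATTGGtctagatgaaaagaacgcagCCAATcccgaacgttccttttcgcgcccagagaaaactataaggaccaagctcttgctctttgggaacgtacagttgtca

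Levels are in FPKM as deposited, in which fragment counts are divided by gene length and library total. The values of each gene stood in whole-number steps, from which the reads behind them were recovered, 32695999 in CTRL1, 34635988 in CTRL2, 35209933 in KO1 and 35391782 in KO2. CTRL1 stood apart from the other libraries, with 19100 genes above 0 where the others had 15913 to 16410. Of those genes 27.2% rested on fewer than 10 reads in CTRL1, and 15.3% to 15.7% in the others. Cluster histone genes were also higher in CTRL1 than in CTRL2 in 44 cases and lower in 15, counting genes with few reads. Of the 21 cluster genes that were tested, 14 were higher in CTRL1, as were 53.4% of all genes tested. Sums over the cluster genes are therefore also given without CTRL1. Setd2 (chr9:110532597-110618633, plus strand) was at 23.4 and 25.3 FPKM in the CTRL libraries and at 21.3 and 19.5 FPKM in the KO libraries. Each KO library was under each CTRL library, with a log2 fold change of -0.24 that did not pass the threshold (adjusted p = 0.0970, limma). The value covers the whole gene, and the floxed exons on their own were not analysed here. Foxp3 was at 112 to 140 FPKM, Cd3e at 220 to 251 and Cd4 at 268 to 299 FPKM, and Cd8a at no more than 0.326 FPKM. Cd8a and Cd8b1 together summed to 8.49 to 11.4 FPKM, so most of that sum came from Cd8b1.

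Together the 75 genes took 0.0559% and 0.0529% of the reads in CTRL and 0.0641% and 0.0634% in KO. Most of this came from the variants, which held 469 to 563 RPM (reads in a library scaled to 1000000 reads), while the 64 cluster genes held 59.9 to 77.6 RPM. Reads were found for 70 members, and 5 (H1f6, H1f7, H2ac1, H2ac10 and H2bc1) were at 0 in all libraries. A level of at least 1 FPKM in at least 2 libraries, the limit for the fit, was reached by 27 members, 21 of the clusters and 6 variants. Another 43 had reads but stayed below the limit, the highest of them at 1.19 FPKM in 1 library. H1f10, H3c1 and H2bc11 reached the limit only through the KO libraries and H4c8 only through the CTRL libraries, so these could enter only by differing. Just above the limit lay H1f10, H4c8 and H3c6, with second-highest values of 1.01, 1.08 and 1.12 FPKM. Just below it lay H4c1, H4c14 and H2bc18, with 0.994, 0.895 and 0.858 FPKM. These bulk values cannot tell fewer cells that express a gene from less RNA per cell.

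**Figure D1:**
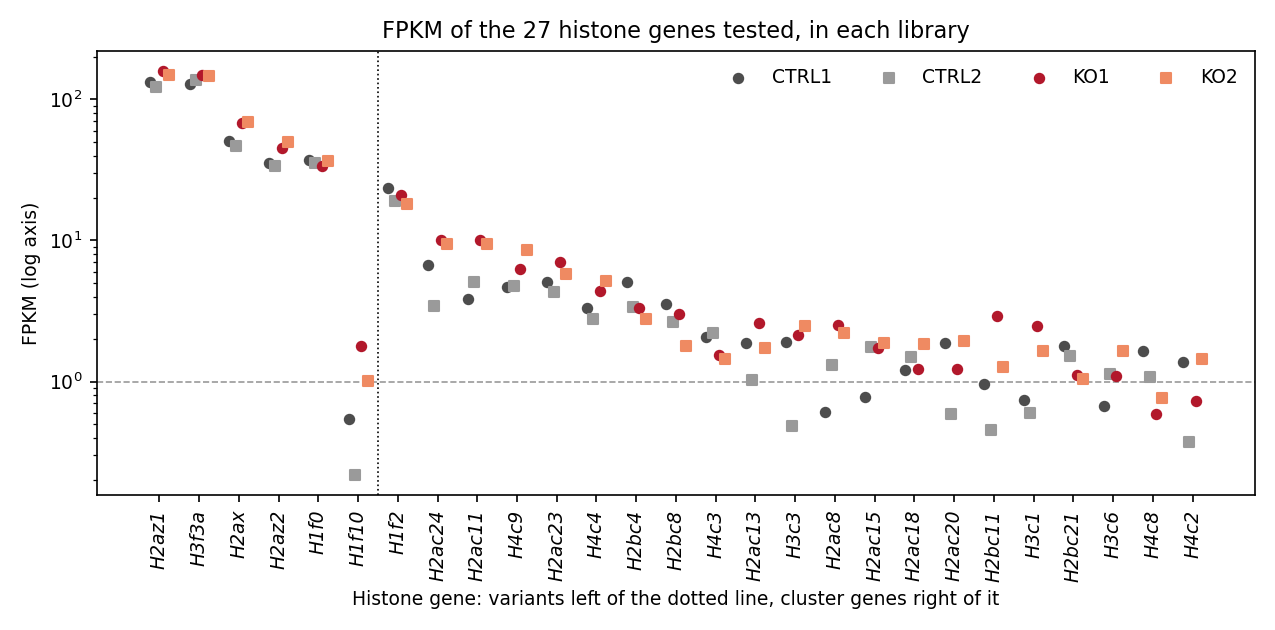
FPKM on a log axis for the 27 histone genes that were tested, each with 1 point per library (circles replicate 1, squares replicate 2, grey CTRL, red and orange KO). The dashed line marks 1 FPKM. The variants H2az1 and H3f3a lie above 100 FPKM in all 4 libraries, and H1f2 is the only cluster gene with a mean above 10 FPKM.

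In the fit over all genes, 4 of the 27 members had an adjusted p under 0.05 (limma, Benjamini-Hochberg over 11399 genes), all of them higher in KO, namely H2ax, H2ac11, H2az2 and H3c1. Over all genes tested, 5.1% were called higher, 4.65% lower and 9.75% either. No member was called lower. At an unadjusted p under 0.05 (limma), 13 members were higher and 3 lower, beside 1855 higher and 2099 lower of all genes tested. With limma-voom on the recovered reads 3 members were called higher and 0 lower, against 7.9% and 8.52% of all genes. Both KO libraries lay above both CTRL libraries for 14 members and below them for 4, which was so for 29% and 35.5% of all genes tested and for 64.5% in either direction. Since these members were chosen with this contrast known, nothing is read from the counts. Just inside the threshold lay H3c1, at an adjusted p of 0.0487, and just outside it H4c4, at 0.0621. The median log2 fold change was 0.34 over the 21 cluster genes tested and 0.35 over the 6 variants, beside -0.022 over all genes tested, and 0.078 and 0.051 over all 64 and 11 members whether tested or not. The medians over tested members include H1f10, H3c1 and H2bc11, which entered only through KO, and H4c8, which entered only through CTRL. The called H3c1 is thus a member that could enter only by differing. Without CTRL1, with 1 library left in that group, the medians over the members tested were 0.52 for the cluster genes and 0.40 for the variants. Without CTRL2 they were 0.19 and 0.30.

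**Figure D2:**
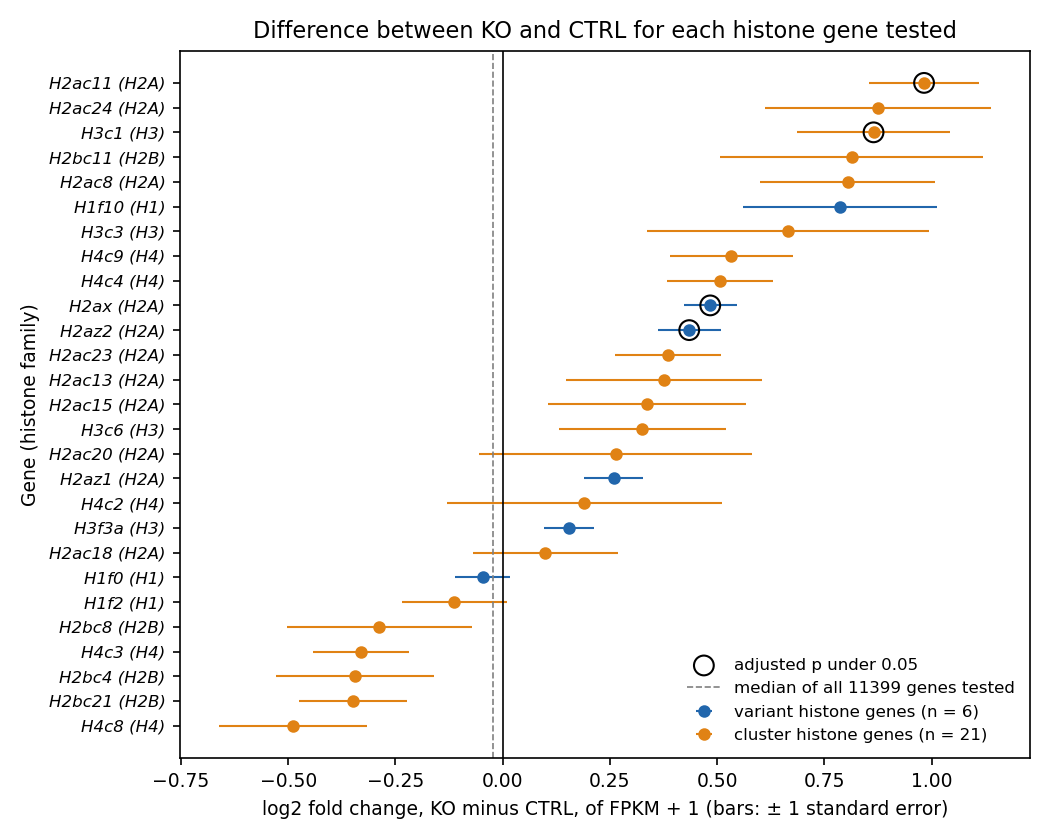
Log2 fold change, KO minus CTRL, of FPKM + 1 for each of the 27 members tested, with bars of 1 standard error, in order of size. Orange marks cluster genes, blue marks variants, rings mark an adjusted p under 0.05, and the dashed line is the median of all genes tested at -0.022. H2ac11 lies highest at 0.98 and H4c8 lowest at -0.49.

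The H2A variants are deposited also outside replication and set the stability of nucleosomes or mark broken DNA. H2az1 (chr3:137864487-137866922) and H2az2 (chr11:6427229-6444443) both encode H2A.Z, the form found at promoters. H2az1 was at 134 and 123 FPKM in CTRL1 and CTRL2 and at 159 and 148 FPKM in KO1 and KO2. H2az2 was at 35.7 and 33.7 FPKM in CTRL against 44.9 and 49.6 in KO. For both genes each KO library was above each CTRL library, and the log2 fold changes were 0.26 (standard error 0.069) and 0.43 (0.073). H2ax (chr9:44334694-44336077) encodes H2A.X, which is phosphorylated around DNA double-strand breaks. It was at 50.9 and 47.1 FPKM in CTRL against 68.7 and 69.1 in KO, or 2277 and 2222 reads against 3304 and 3339. The KO libraries differed from each other by less than the CTRL libraries did, a log2 fold change of 0.48 (standard error 0.062). Together the 3 genes held 247 ± 13.6 RPM in CTRL and 319 ± 1.90 in KO (SD, n = 2), a ratio of 1.29, and 1.35 with CTRL2 as the only control. CTRL1 was the higher CTRL library, at 256 RPM against 237, so the ratio to CTRL1 alone would be lower.

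The H3.3 variant is encoded by H3f3a and H3f3b and replaces H3 in transcribed genes outside S phase. H3f3a (chr1:180800832-180813943) was at 129 and 137 FPKM in CTRL against 149 and 146 in KO, a log2 fold change of 0.15 (standard error 0.058), without overlap of the groups. H3f3b (chr11:116021912-116027962) was listed at 0.826 and 0.898 FPKM in CTRL against 0.682 and 0.594 in KO, from 42 to 62 reads, and was too low for the fit. The mean FPKM of H3f3a was 187 times that of H3f3b as listed, and 1.92% of the stretches of 100 bases in H3f3b transcripts also occur in another gene, compared with 20.8% for H3f3a. All 12 H3 cluster genes together gave 552 reads over the 4 libraries, which is 2.55% of the reads of H3 genes, and H3f3a gave 20918. Whether the counting took up all reads of H3f3b was not tested, so this ratio and this share hold for the listed values only.

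Linker histones bind DNA where it enters and leaves the nucleosome. H1f0 (chr15:79028450-79030504), the linker variant of cells that divide little, was at 37.01 and 35.7 FPKM in CTRL against 33.8 and 36.5 in KO, and the groups overlapped. H1f10 (chr6:87980421-87981637), another linker variant, was at 0.545 and 0.217 FPKM in CTRL against 1.79 and 1.01 in KO, from 19, 8, 67 and 38 reads, and overlaps Gm5577 on the other strand. Its log2 fold change was 0.79 with a standard error of 0.23, the widest among the variants. H1f2 (chr13:23738808-23740367), a linker gene of the cluster that holds both a stem-loop and a poly(A) signal, was at 23.6 and 19.1 FPKM in CTRL against 20.9 and 18.3 in KO. It gave 44.9% of all cluster reads, its groups overlapped, and its log2 fold change was -0.11 (standard error 0.12) with all libraries and 0.031 without CTRL1. Within each genotype the library numbered 1 was the higher one. The other 5 H1 cluster genes held 1.53 to 2.95 RPM in sum.

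Variants outside the symbol rule were read beside these. Macroh2a1, a large H2A variant of repressed chromatin, was at 136 and 136 FPKM in CTRL against 136 and 154 in KO. Macroh2a2, its relative, was at no more than 0.282 FPKM. Cenpa, the H3 variant of centromeres, was at 45.5 and 36.1 FPKM in CTRL against 56.0 and 57.3 in KO, a log2 fold change of 0.47 (adjusted p = 0.0621, limma) that did not pass the threshold.

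The cluster genes were lower in level and less alike than the variants. Summed by family, the H2A genes of the clusters held 11.8 and 10.3 RPM in CTRL and 18.6 and 17.8 in KO, which was 11.04 ± 1.04 and 18.2 ± 0.527 (SD, n = 2) and a ratio of 1.65. The groups did not overlap, and without CTRL1 the ratio was 1.77. The H2B genes held 13.5 and 9.67 RPM in CTRL and 11.6 and 8.84 in KO, a ratio of 0.882 with overlapping groups, and 1.06 without CTRL1. Summed as FPKM the ratio of the H2B genes was 1.02, so their direction rests on the scale. The H3 genes held 4.19 and 2.45 RPM in CTRL and 4.69 and 4.66 in KO, and here CTRL1 lay nearer to the KO libraries than to CTRL2. The ratio was 1.41, and 1.90 without CTRL1. The H4 genes held 7.10 and 6.03 in CTRL and 7.07 and 8.59 in KO, with overlap, a ratio of 1.19, and 1.30 without CTRL1. All 64 genes together held 76.1 and 59.9 RPM in CTRL and 77.6 and 71.4 in KO, a ratio of 1.10 with overlap. Summed as FPKM, which gives short genes more weight, they came to 89.1 and 69.9 in CTRL and to 103 and 97.1 in KO, a ratio of 1.26 without overlap, and the 11 variants to 387 and 378 in CTRL and to 459 and 452 in KO, a ratio of 1.19. Without H1f2, 63 genes held 39.2 and 30.0 in CTRL and 44.9 and 42.8 in KO, a ratio of 1.27, and 1.46 when CTRL1 was left out as well. In each of these sums CTRL1 was the higher CTRL library. Leaving it out raised the ratios, and leaving out CTRL2 instead would lower them.

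**Figure D3:**
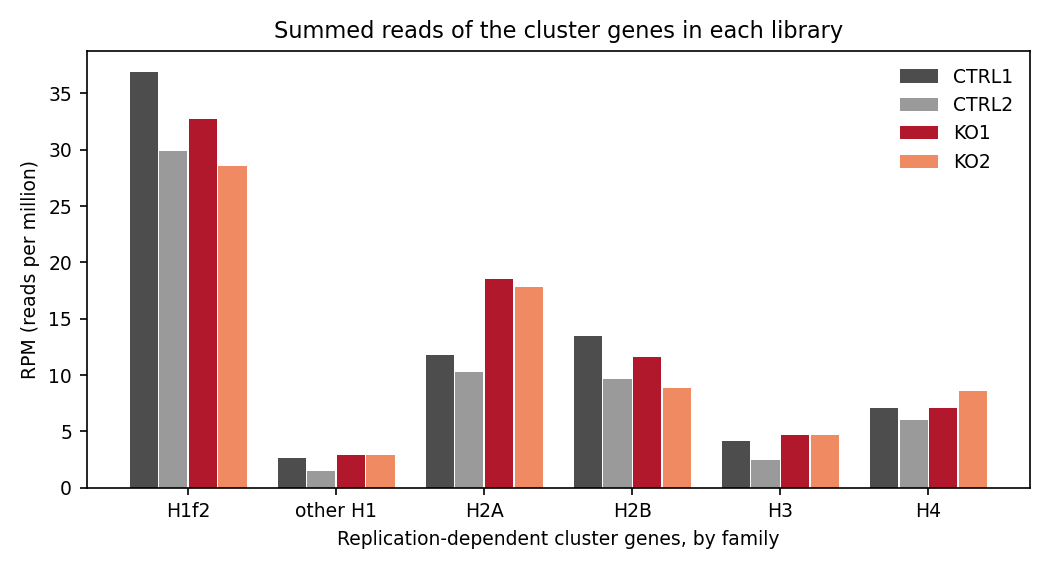
Summed RPM of the replication-dependent cluster genes in each library, by family, with H1f2 apart from the other H1 genes. Bars are single libraries and start at 0. In the H2A family both KO bars (18.6 and 17.8) stand above both CTRL bars (11.8 and 10.3), while in H1f2 and H2B the bars of the genotypes interleave.

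Of the H2A cluster genes, 8 were tested and all 8 had a log2 fold change above 0, as did 46.2% of all genes tested. Among H2A cluster genes with reads but too low for the fit, H2ac6 was at -0.13 from 124 reads and H2ac7 at -0.15 from 5 reads. H2ac4, H2ac12, H2ac19, H2ac21 and H2ac22 were above 0. H2ac11 (Hist1h2ag in GENCODE, chr13:22042460-22042944) was at 3.87 and 5.07 FPKM in CTRL against 10.1 and 9.42 in KO, from 60, 83, 168 and 158 reads. H2ac24 (chr13:21833026-21833507) was at 6.75 and 3.45 FPKM in CTRL against 10.1 and 9.47 in KO. Both KO libraries were above both CTRL libraries for these genes, and the log2 fold changes were 0.98 (standard error 0.13) and 0.88 (0.26). That of H2ac24 rested on the CTRL libraries, at 1.28 without CTRL1 and 0.48 without CTRL2. H2ac23 was at 5.04 and 4.33 FPKM in CTRL against 7.05 and 5.82 in KO. H2ac8, lower in level, was at 0.606 and 1.31 FPKM in CTRL against 2.53 and 2.203 in KO. Of the 17 H2A genes of the clusters, 12 have over 50% of their stretches of 100 bases also in other genes. The shared part was 76.2% in H2ac11, 92.2% in H2ac24 and 92.7% in H2ac23. The counting could split or drop such reads, so the value of each of these genes is uncertain. In H2ac8 the shared part was 30.7%, and in H2ac6 it was 8.06%. H4c4, which shares no such stretch, was at 3.32 and 2.78 FPKM in CTRL against 4.36 and 5.15 in KO, and H4c9 (chr13:22040636-22041362) was at 4.71 and 4.78 FPKM in CTRL against 6.28 and 8.51 in KO. Their log2 fold changes were 0.51 and 0.53, with no overlap of the groups, and that of H4c9 was 0.34 without KO2 and 0.73 without KO1.

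Cluster genes with few reads stood at both ends of the order. H3c1 (chr13:23761853-23762386), which encodes the replication-dependent H3.1, was at 0.742 and 0.595 FPKM in CTRL against 2.49 and 1.64 in KO, from 13, 11, 47 and 31 reads, a log2 fold change of 0.86 (standard error 0.18). H3c3, the H3 cluster gene with the highest mean FPKM, was at 1.91 and 0.481 FPKM in CTRL against 2.12 and 2.47 in KO, so the CTRL libraries differed from each other by more than CTRL1 did from KO. Its log2 fold change was 0.67, and 1.15 without CTRL1 and 0.18 without CTRL2. H2bc11, which faces H2ac11 across the stretch printed above, was at 0.960 and 0.455 FPKM in CTRL against 2.90 and 1.26 in KO, from 6 to 39 reads, with a log2 fold change of 0.81 that was 0.42 without KO1. At the other end, H4c8 was at 1.65 and 1.08 FPKM in CTRL against 0.591 and 0.765 in KO, a log2 fold change of -0.49 from 10 to 26 reads, and -0.31 without CTRL1. H4c3 was at 2.05 and 2.22 FPKM in CTRL against 1.54 and 1.45 in KO. For both H4 genes the KO libraries were below the CTRL libraries, the opposite of H4c4 and H4c9, and none of the 4 was called. Among H2B genes, H2bc21 (chr3:96221119-96223738) was at 1.78 and 1.52 FPKM in CTRL against 1.11 and 1.04 in KO, and H2bc4 (chr13:23684199-23692908) at 5.07 and 3.37 FPKM in CTRL against 3.35 and 2.79 in KO. H2bc8 was at 3.57 and 2.63 FPKM in CTRL against 2.99 and 1.79 in KO. The groups did not overlap for H2bc21 and H2bc4, and did for H2bc8. The search found a stem-loop in H2bc8 and none in the annotated transcripts of H2bc21 and H2bc4. For H2bc4 the log2 fold change was -0.34 with all libraries and -0.11 without CTRL1, and for H2bc8 it was -0.29 with all and -0.028 without KO2.

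The same reads were then summed by what the genes share in sequence and place. The 30 cluster genes with sequence after the stop codon and no poly(A) signal there held 18.2 and 13.7 RPM in CTRL and 24.6 and 22.5 in KO, a ratio of 1.48 without overlap. The 18 with a poly(A) signal other than H1f2 held 17.8 and 14.003 in CTRL and 16.6 and 17.0 in KO, a ratio of 1.06 with overlap. Without CTRL1 the ratios were 1.73 and 1.20, and on summed FPKM with all libraries 1.51 and 1.22. Within the H4 genes the order was the opposite. The 6 H4 genes with a poly(A) signal held 5.02 and 4.53 RPM in CTRL and 5.74 and 7.12 in KO, a ratio of 1.35, and the other 6 held 2.08 and 1.501 in CTRL and 1.33 and 1.47 in KO, a ratio of 0.783. By place, the 23 genes in the stretch of the chromosome 13 cluster with the lower coordinates held 13.4 and 11.4 RPM in CTRL and 21.02 and 19.7 in KO, a ratio of 1.64. The 31 genes in the stretch with the higher coordinates had a ratio of 1.00, or 1.15 without CTRL1, and include H1f2. The 10 genes of chromosome 3 held 8.20 and 6.67 in CTRL and 5.79 and 6.13 in KO, a ratio of 0.80 on reads and 1.00 on summed FPKM. The 28 cluster genes with over 50% of their stretches shared had a ratio of 1.499 and the other 36 a ratio of 1.01, or 1.74 and 1.15 without CTRL1. The 36 include H1f2, which gave 44.9% of all cluster reads, and on summed FPKM the ratios were 1.53 and 1.14. Of these 28 genes, 12 were H2A genes, 16 lay in the lower stretch of chromosome 13 and 14 had no poly(A) signal in the sequence after the stop codon. For 29 cluster genes the gene length behind the FPKM equalled the coding length, so no base after the stop codon was counted. In each grouping CTRL1 was the higher CTRL library, so leaving out CTRL2 instead would lower the ratios. Differences between these groupings were not tested.

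Genes that act on histone mRNA and on histones were read from lists that were chosen with results of these data known. Of the genes for synthesis, end processing and decay of histone mRNA, 23 were tested, 1 was called higher and 0 lower (5 and 1 at an unadjusted p under 0.05, and 3 and 0 by limma-voom), and 9 were above 0, with a median log2 fold change of -0.0086. The called gene was Cdk9, the kinase that releases paused RNA polymerase, which rose from 35.5 and 33.5 to 47.1 and 46.1 FPKM (log2 fold change 0.42, adjusted p = 0.0351, limma). Slbp, the stem-loop binding protein, was at 43.9 and 35.8 FPKM in CTRL against 50.9 and 54.0 in KO and was not called (adjusted p = 0.0758, limma). Npat, the coactivator of cluster genes, was at 6.62 and 6.15 FPKM in CTRL against 5.86 and 5.70 in KO.

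Of the histone chaperones and exchange factors, 36 were tested, 3 were called higher and 1 lower, with a median of 0.015. At an unadjusted p under 0.05, 10 were higher and 4 lower, and limma-voom called 4 higher and 4 lower. Those called higher were Asf1b, which hands H3 and H4 to assembly factors, and Chaf1a and Chaf1b, subunits of the factor that assembles nucleosomes behind the replication fork. Asf1b rose from 20.6 and 15.4 to 31.2 and 32.9 FPKM (log2 fold change 0.81), Chaf1b from 12.8 and 11.6 to 19.7 and 22.1 FPKM (0.73) and Chaf1a from 6.65 and 5.42 to 9.56 and 9.22 FPKM (0.57). Without the intensity trend 1 gene of this list was called higher, and 0 with every gene above 0 tested. Atrx, which with Daxx deposits H3.3, fell from 39.0 and 40.3 to 30.5 and 32.3 FPKM (-0.33), with an adjusted p of 0.0422 (limma), a call that was lost with median-ratio scaling, without the intensity trend, with every gene above 0 tested and without any 1 library. Hira, which deposits H3.3 in transcribed genes, was at 13.5 to 14.1 FPKM in all libraries. Among genes for writers and erasers of lysine 36 methylation, the demethylases Kdm4a and Kdm2b were called higher (log2 fold changes 0.51 and 0.36). Of the 10 tested, 0 were called lower (2 at an unadjusted p under 0.05 and 1 by limma-voom). Both calls were lost without the intensity trend and with every gene above 0 tested.

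Genes of the cell cycle were read beside the histone genes, with both lists chosen in the same way. Of 50 S phase genes, 22 were called higher and 0 lower, and the median log2 fold change was 0.39. Mcm3 and Mcm5, subunits of the replicative helicase, rose from 34.3 and 30.4 to 57.6 and 58.1 FPKM and from 26.9 and 24.9 to 46.9 and 47.5 FPKM. Rrm2, a subunit of ribonucleotide reductase, rose from 27.1 and 21.9 to 42.4 and 39.998 FPKM, while Pcna was at 222 and 194 FPKM in CTRL against 250 and 240 in KO and was not called. Of 30 mitosis genes, 19 were called higher and 0 lower, and in all 30 both KO libraries lay above both CTRL libraries. Top2a rose from 31.4 and 24.5 to 57.6 and 58.5 FPKM (log2 fold change 1.04, adjusted p = 0.0351, limma). The summed FPKM of KO over CTRL was 1.35 for S phase genes and 1.78 for mitosis genes, beside 1.72 for the H2A cluster genes, 1.27 for the 3 H2A variants and 1.02 for the H2B cluster genes. In both lists CTRL1 lay above CTRL2, at 1.06 against 0.937 and at 1.13 against 0.869 of the CTRL mean. With CTRL2 as the only control the ratios were 1.44 and 2.05, and with CTRL1 as the only control 1.27 and 1.57. At an unadjusted p under 0.05, 36 S phase genes were higher and 1 lower, and all 30 mitosis genes were higher, while limma-voom on recovered reads called 26 and 27 genes higher and 0 lower. The part of the cell cycle in the histone values was not tested.

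**Figure D4:**
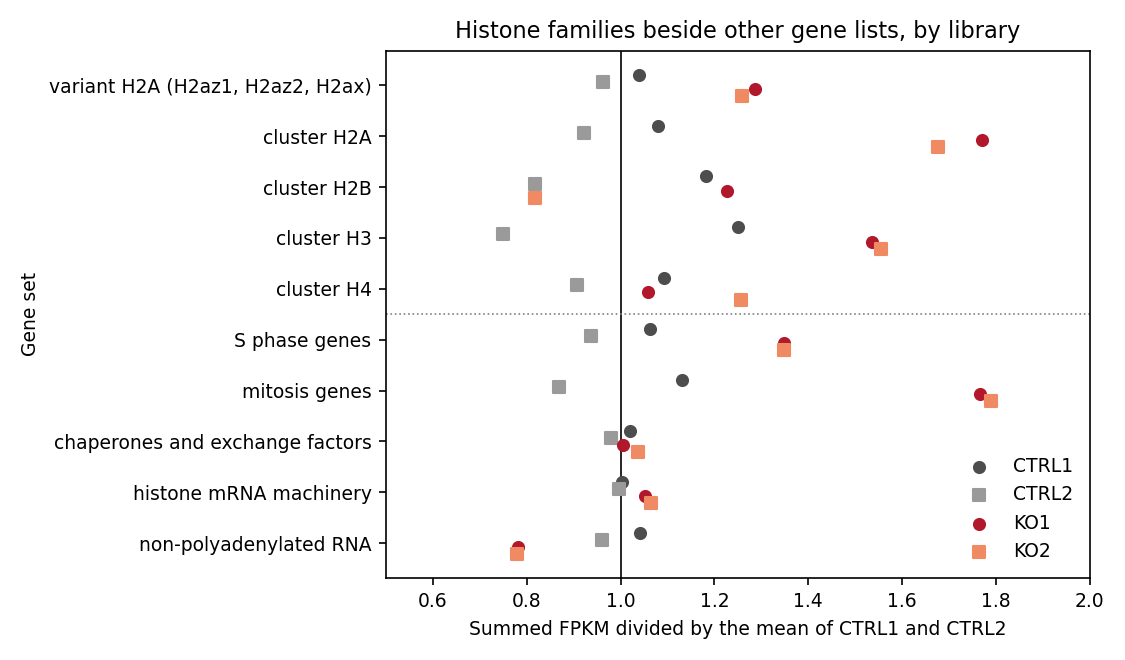
Summed FPKM of each set in each library, divided by the mean of CTRL1 and CTRL2, with histone families above the dotted line and other lists below it. Both KO libraries lie to the right of both CTRL libraries for H2A variants, H2A and H3 cluster genes, S phase genes and mitosis genes. The same holds for the histone mRNA machinery, at 1.05 and 1.06 in KO. They lie to the left for the non-polyadenylated RNA genes, at 0.782 and 0.779.

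Small nucleolar and other genes of non-polyadenylated RNA were also summed, and which transcripts gave their reads was not tested. Their FPKM came to 1621 and 1495 in CTRL and to 1218 and 1214 in KO, and of 76 tested 0 were called higher and 11 lower, with a median log2 fold change of -0.30. Without adjustment, p was under 0.05 for 1 higher and 29 lower genes, and limma-voom called 0 higher and 3 lower. Snord96a and Snora81, among the most abundant, fell from 141 and 127 to 106 and 104 FPKM and from 125 and 115 to 76.3 and 89.1 FPKM. Snora28 and Snord104 were not called. Myeloid and erythroid markers were higher in the libraries numbered 1 of both genotypes. The 10 myeloid markers summed to 226 and 137 FPKM in CTRL and to 294 and 112 FPKM in KO, and the 6 erythroid markers measured to 22.8, 4.16, 38.6 and 11.5 FPKM. Lyz2 was the highest of the former, at up to 153 FPKM, and 3 of the 6 erythroid markers were at 0 in at least 1 library. B cell markers summed to 27.8 and 22.7 FPKM in CTRL and to 43.6 and 25.4 FPKM in KO. Plasma cell markers summed to 101 and 76.6 FPKM in CTRL and to 127 and 89.95 FPKM in KO, and the CD8 markers to 8.49 to 11.4 FPKM. Of the 23 markers of these 5 cell types tested, 0 were called by limma, 4 were higher and 0 lower at an unadjusted p under 0.05, limma-voom called 1 B cell and 1 plasma cell marker higher, and with the replicate number as a block 5 were called higher, 2 of them erythroid, and 0 lower. Their part in the histone values was not tested. T cell markers summed to 2814 to 2922 FPKM with 0 of 6 called by limma or limma-voom and 1 lower at an unadjusted p under 0.05, and Treg markers to 1395 to 1580 FPKM with 1 of 7 called higher, Tnfrsf4 (log2 fold change 0.31, adjusted p = 0.0400, limma).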

How the data were processed

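RNA-seq libraries of 4 pools of sorted splenic Treg cells (2 CTRL, 2 KO) were read from 1 table for the whole series. Per the study's methods and the labels, the authors mapped 150 bp read pairs to mm10 with HISAT2 (2.2.1), counted them with featureCounts (2.0.1), used edgeR (3.34.0) for their own tests and deposited FPKM values. The handling of strand and of reads that fit several genes was not given in the sources used here. Columns named WT were taken as the CTRL libraries of the same number.

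The members, gene lists, rule for named genes and alternatives were chosen with earlier results of these data known. Named members had a mean of at least 5 FPKM or were among the 5 highest or 5 lowest fold changes, with the H3.3, H2A.Z, H2A.X, macroH2A, H1f0 and H1f10 genes and the highest H3 cluster gene added. From each list the most abundant genes and genes past the threshold were named, in part only for the cell cycle and non-polyadenylated RNA lists. The lists were histone mRNA machinery, chaperones, S phase, mitosis, lysine 36 methylation, non-polyadenylated RNA and markers of B, plasma, CD8 T, myeloid, erythroid, T and Treg cells.

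KO was compared with CTRL by limma (3.58.1, R 4.3.3; lmFit, eBayes with an intensity trend) on log2(FPKM + 1) over the 11399 genes with at least 1 FPKM in at least 2 libraries, two-sided, with Benjamini-Hochberg adjustment over all of them and a threshold of 0.05. Fold changes on this scale understate those of weakly expressed genes. Whole reads were recovered for all 19888 genes above 0, within 0.005 reads, for 91.6% of them from small whole-number multiples and for the rest from whole gene lengths. Depth was 32695999 to 35391782 recovered reads per library, and RPM (reads scaled to 1000000) refers to these totals. With 2 libraries per group, precision is set by the spread between 2 pools, and an exact permutation test could not go below p = 0.3333. Gene positions, coding and transcript sequences came from GENCODE vM21 (GRCm38), which held all 75 members, and promoters from RefSeq. Symbols were matched to older names where needed. Alternatives were another pseudocount, filters, scalings, variance models, the replicate number as a block, limma-voom on recovered reads and leaving out each library. The fit was tested on simulated data. The other steps ran in Python (3.11.15) with numpy (2.4.6), pandas (2.3.3) and, for figures, matplotlib (3.10.9).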

Additional observations from a re-analysis of the deposited data

How the results depend on the processing

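The filter on low values and the number of libraries moved the counts most. With every gene above 0 in any library tested, 0 genes were called higher and 0 lower over all genes, 0 members were called and the lists of histone mRNA machinery, chaperones, S phase, mitosis and lysine 36 methylation, with 47 higher and 1 lower gene in the main comparison, gave 0 and 0, while 2212 higher and 2251 lower genes and 17 higher and 5 lower members had an unadjusted p under 0.05. Leaving out any 1 library also removed nearly all calls over all genes, and all calls of members and of these lists. A lone library then stands for a group, and why the calls were lost was not tested. Without the intensity trend, 315 genes were called higher and 364 lower over all genes. In that fit 2 members and 29 genes of these lists were called higher and 0 lower. Limma-voom on recovered reads called 900 genes higher and 971 lower. The 1 gene of these lists called lower became 3 with libraries scaled to the same sum and with robust eBayes, 0 with median-ratio scaling, 4 with a mean above 5 FPKM and 5 with limma-voom. Of the non-polyadenylated RNA genes, 11 lower as reported, 5 were called lower without the intensity trend, 22 with the replicate block, 3 with limma-voom and 0 without 1 library or with every gene above 0. The cause was not tested beyond what each setting changes.

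The median log2 fold change of the cluster genes, 0.34, was 0.096 with every gene above 0, 0.59 with limma-voom, 0.53 with a mean above 5 FPKM, 0.57 with a pseudocount of 0.1 and 0.19 to 0.52 without 1 library, the highest without CTRL1. With members of at most 50% shared stretches it was 0.33. That of the variants, 0.35, was 0.10, 0.35, 0.26 and 0.35 in the first 4 settings, 0.27 with quantile normalization and 0.30 to 0.40 without 1 library. The ratio of summed FPKM ranged from 1.12 to 1.43 for the cluster genes and from 1.18 to 1.20 for the variants without 1 library. Setd2 stayed lower and short of the threshold under each setting, at -0.30 to -0.18 without 1 library. H1f2 turned to 0.031 without CTRL1 and was -0.26 without CTRL2, and H1f0 turned to 0.0069 without KO1 and was -0.10 without KO2. The other named members kept their direction in the settings that could be fitted.

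The replicate numbers pair the libraries by number only. A fit with that number as a block called 968 genes higher and 805 lower, and 10 members were called higher and 2 genes of these lists lower. The 6 members added were H2az1, H1f10, H4c9, H2ac24, H2bc11 and H2ac8. Deviations of libraries with the same number from their group means correlated across genes with a Pearson r of 0.342 and a Spearman rho of 0.055.

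Depth limits the cluster genes. The 21 tested rested on a median of 116 reads over the 4 libraries and had a median standard error of 0.18, compared with 0.067 for the variants, and 18 of the 60 cluster genes with reads had fewer than 20 in all.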

Other observations

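Histone genes of germ cells were at or near 0 in these libraries. H2ac1 and H2bc1, the H2A and H2B genes of the testis, and the testis linker genes H1f6 and H1f7 had 0 reads in all 4 libraries, and a count of 0 allows up to 3 reads, or 0.0918 RPM in CTRL1, the shallowest library, for counting error only. H1f9, another testis linker gene, had 1 read in CTRL1 and 0 elsewhere. H1f8, the linker histone of oocytes, had 0 and 4 reads in CTRL and 2 and 5 in KO. These genes were singled out after their values were seen.

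Among cluster genes too low for the fit, H1f4 and H2bc6 had the most reads, 162 and 138 over the 4 libraries. H1f4, a linker gene, was at 0.663 and 0.478 FPKM in CTRL against 0.675 and 0.613 in KO, and H2bc6 at 0.486 and 0.196 FPKM in CTRL against 0.440 and 0.472 in KO. In both genes the CTRL libraries differed from each other by more than their means differed from those of KO. The genes overlap each other on 1 strand, and their values are uncertain as the handling of shared reads was not tested.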
